A study of Rattus norvegicus with 8 samples.

Results

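Organic anion and cation transporter genes of the kidney were taken as all probe sets with a single gene symbol that starts with Slc22a, Slco, Slc47a, Slc17a or Slc10a in the platform's annotation. This gave 47 genes of the 18166 with a single symbol on the array, namely 17 Slc22a, 13 Slco, 2 Slc47a, 8 Slc17a and 7 Slc10a genes. Each was measured by 1 probe set. The name prefix groups carriers of drugs, urate, bile acids and toxins with vesicular and orphan members that have other substrates, so the label fits only part of the 47. One more probe set, which carries 2 symbols of the Slco1a group, was left out, and Slc17a1 and Slco1a1 are not analysed here.

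The samples were total RNA from kidney of male Wistar rats, 10 weeks old, on Affymetrix whole-transcript arrays. They form 2 groups by tissue region, with 4 arrays of cortex and 4 of medulla. All 8 arrays carry one treatment label, ethylene glycol given daily and vitamin D given every other day for 1 week, so no untreated group could be compared. The series describes a selection of genes with a 2-fold change in both regions without naming the arrays compared, and the spread between arrays was therefore read at 2-fold within each region. The animals behind the arrays are not named in the labels, and p-values therefore measure the spread between arrays, which may be technical. Whether a cortex and a medulla array share an animal is not stated, so a pattern seen in both regions may come from shared animals. Values below are log2 intensities, a difference of 1 equals 2-fold, and levels are not compared between genes because each probe set has its own brightness.

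The proximal tubule clears drugs, toxins and metabolic waste from blood in 2 steps. Carriers of the basolateral membrane take the compounds up from blood, and carriers of the brush border pass them into the urine or bring urate and conjugates back. Organic anion uptake by the Slc22 family is driven by exchange for dicarboxylates, organic cations enter down the membrane potential and leave in exchange for protons, and Slco members carry bulky anions such as conjugated steroids, thyroid hormones and prostaglandins. In rats many of these genes are expressed mainly in the later parts of the proximal tubule.

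Cortex replicate 4 and medulla replicate 4 stood apart from the other arrays of their regions. Over all genes, a range of at least 2-fold between arrays was found in 654 genes in cortex and 691 in medulla, and in 145 and 170 without these arrays. Leaving out any array can only narrow a range. The replicate 4 arrays were fixed as those to leave out, and the counts over all genes without another replicate were not computed. Injury markers (6 of 6 genes measured) were high on them as a sum. Their summed intensity was 9734 on cortex replicate 4, where the remaining cortex arrays had 1293 to 1880. On medulla replicate 4 it was 11461, where the remaining medulla arrays had 1404 to 6093 with replicate 3 the highest of them. Of these 6 genes 4 were highest on replicate 4 in both regions (Havcr1, Lcn2, Clu and Spp1). Krt20 lay between 4.31 and 4.44 on all arrays. Vcam1 was highest on cortex replicate 1, at 6.31, and on medulla replicate 3, at 6.78. The kidney label was borne out by the proximal tubule endocytic receptor gene Lrp2, which measured 10.38 to 10.82 on all 8 arrays, while the liver gene Alb stayed between 4.51 and 4.59. Of the 4 fixed hepatocyte markers 3 were measured, and their summed intensity was 76.8 to 80.0 in cortex and 75.8 to 77.9 in medulla.

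Within a region, 11 of the 47 transporter genes ranged over at least 2-fold between cortex arrays, against 3.6% of all genes, and 10 between medulla arrays, against 3.8%. In both regions 8 passed, against 2.21% of all genes. In bulk tissue such as this, fewer cells of a type and less RNA per cell cannot be told apart. The 8 were Slco1a6, Slc22a13, Slc22a25, Slc22a24, Slco4c1, Slc10a5, Slc22a22 and Slco1a3. In each of the 8 the lowest array was replicate 4 in cortex and in medulla, a combination of range and low arrays found in 1.02% of all genes. None of the 47 had such ranges with replicate 4 highest in both regions, a combination found in 0.941% of all genes. Without replicate 4, the regional counts were 2 in cortex, against 0.798% of all genes, and 1 in medulla, against 0.936%. Without cortex replicate 4 the count in both regions was 1, without medulla replicate 4 it was 1, and without both arrays it was 1, against 0.248% of all genes. That gene was Slc22a13. The median range over the 47 was 0.54 in cortex and 0.42 in medulla, beside 0.21 and 0.25 over all genes. Among the 35 members above the 30th percentile of mean signal the counts were again 11, 10 and 8, and 8 with replicate 4 lowest, against 5.14%, 5.42%, 3.16% and 1.46% of the 12716 genes above it.

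The promoter windows of the 5 genes with the largest ranges in both regions, ranked by the smaller of the 2 regional ranges, are printed here because these genes shared their low arrays. Each runs from 250 bases before to 50 bases after the start site in the rat RefSeq table of build GRCr8, and 39 of the 47 genes had such a window. Capitals mark 3 motifs searched on both strands, the HNF1 core GTTAAT, the CCAAT box and the GC box GGGCGG, and no matches overlapped in the windows shown.
Slco1a6 (chr4:176838983-176839282, minus strand): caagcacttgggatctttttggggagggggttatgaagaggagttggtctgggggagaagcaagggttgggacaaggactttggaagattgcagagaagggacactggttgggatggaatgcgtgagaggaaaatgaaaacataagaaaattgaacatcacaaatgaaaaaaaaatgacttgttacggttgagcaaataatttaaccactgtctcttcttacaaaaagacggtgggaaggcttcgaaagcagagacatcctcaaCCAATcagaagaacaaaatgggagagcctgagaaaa
Slc22a13 (chr8:127811701-127812000, minus strand): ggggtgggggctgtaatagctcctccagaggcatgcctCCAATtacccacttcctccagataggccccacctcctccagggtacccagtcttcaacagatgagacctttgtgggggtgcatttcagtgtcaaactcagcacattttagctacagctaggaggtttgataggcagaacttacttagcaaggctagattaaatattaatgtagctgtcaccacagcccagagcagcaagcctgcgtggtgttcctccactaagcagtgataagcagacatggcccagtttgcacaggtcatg
Slc22a25 (chr1:214862291-214862590, minus strand): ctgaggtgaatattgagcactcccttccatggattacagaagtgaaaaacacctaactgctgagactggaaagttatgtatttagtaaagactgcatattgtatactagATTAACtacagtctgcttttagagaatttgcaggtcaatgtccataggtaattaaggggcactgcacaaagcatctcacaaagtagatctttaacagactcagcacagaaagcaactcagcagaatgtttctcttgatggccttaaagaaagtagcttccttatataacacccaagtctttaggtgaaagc
Slc22a24 (chr1:214394632-214394931, minus strand): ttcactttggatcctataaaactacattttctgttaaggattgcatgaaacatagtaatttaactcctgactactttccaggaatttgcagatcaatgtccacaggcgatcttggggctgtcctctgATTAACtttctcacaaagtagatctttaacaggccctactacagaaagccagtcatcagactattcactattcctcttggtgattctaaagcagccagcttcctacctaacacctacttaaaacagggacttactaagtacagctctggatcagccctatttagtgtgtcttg
Slco4c1 (chr9:104676413-104676712, minus strand): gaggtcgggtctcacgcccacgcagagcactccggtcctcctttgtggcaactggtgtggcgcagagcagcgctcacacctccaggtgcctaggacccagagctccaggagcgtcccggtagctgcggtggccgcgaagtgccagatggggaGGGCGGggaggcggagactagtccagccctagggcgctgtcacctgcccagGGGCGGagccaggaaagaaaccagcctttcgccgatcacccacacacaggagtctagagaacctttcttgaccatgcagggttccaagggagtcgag

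The HNF1 core was in the windows of Slc22a25 and Slc22a24, in 6 of the 39 transporter windows, and in 7.45% of all 33469 windows of this length in the table. The CCAAT box was in Slco1a6 and Slc22a13, in 11 of the 39 windows and in 37.5% of all. Only the Slco4c1 window among the 5 held the GC box, which was in 12 of the 39 and in 33.1% of all. The 5 genes therefore shared none of these motifs in this window. HNF1 proteins are proximal tubule transcription factors, and the CCAAT and GC boxes are general promoter elements.

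Slco1a6 encodes a kidney organic anion transporting polypeptide. It measured 10.36, 10.14, 9.94 and 7.33 across cortex and 10.10, 10.02, 9.97 and 8.20 across medulla, where values here and below stand in the order of replicates 1 to 4. Cortex replicate 4 lay 6.09-fold below the lowest of the other cortex arrays, and medulla replicate 4 lay 3.42-fold below the lowest of the other medulla arrays. The other arrays of each region were close together, with ranges of 0.42 in cortex and 0.13 in medulla, against 3.03 and 1.91 with replicate 4.

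Its neighbour Slco1a3, with no protein-coding gene between them in the rat RefSeq table, encodes the kidney-specific carriers OAT-K1 and OAT-K2, which take up methotrexate. Slco1a3 measured 8.51, 8.68, 8.35 and 7.11 across cortex and 8.26, 8.42, 8.44 and 7.29 across medulla. Its range was 1.58 in cortex and 1.15 in medulla, and 0.33 and 0.18 without replicate 4. Slco1a genes are close copies of each other, and how far their probes cross-hybridise was not tested. Slco1a4, a member of the same chromosomal group, measured 4.25 to 4.33 on the 8 arrays, at the dim end of the array, where differences in RNA are compressed.

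Slco4c1 encodes the basolateral carrier of digoxin, thyroid hormones and uremic toxins in the proximal tubule. It measured 8.13, 8.11, 7.86 and 6.14 across cortex and 7.72, 7.76, 7.79 and 6.51 across medulla. Replicate 4 was 3.29-fold below the lowest of the other arrays in cortex and 2.31-fold below in medulla, while the other arrays ranged over 0.27 and 0.07. The 3 measured Slco6 genes, Slco6b1, Slco6c1 and Slco6d1, known from testis, lay between 4.23 and 4.42 throughout.

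**Figure D1:**
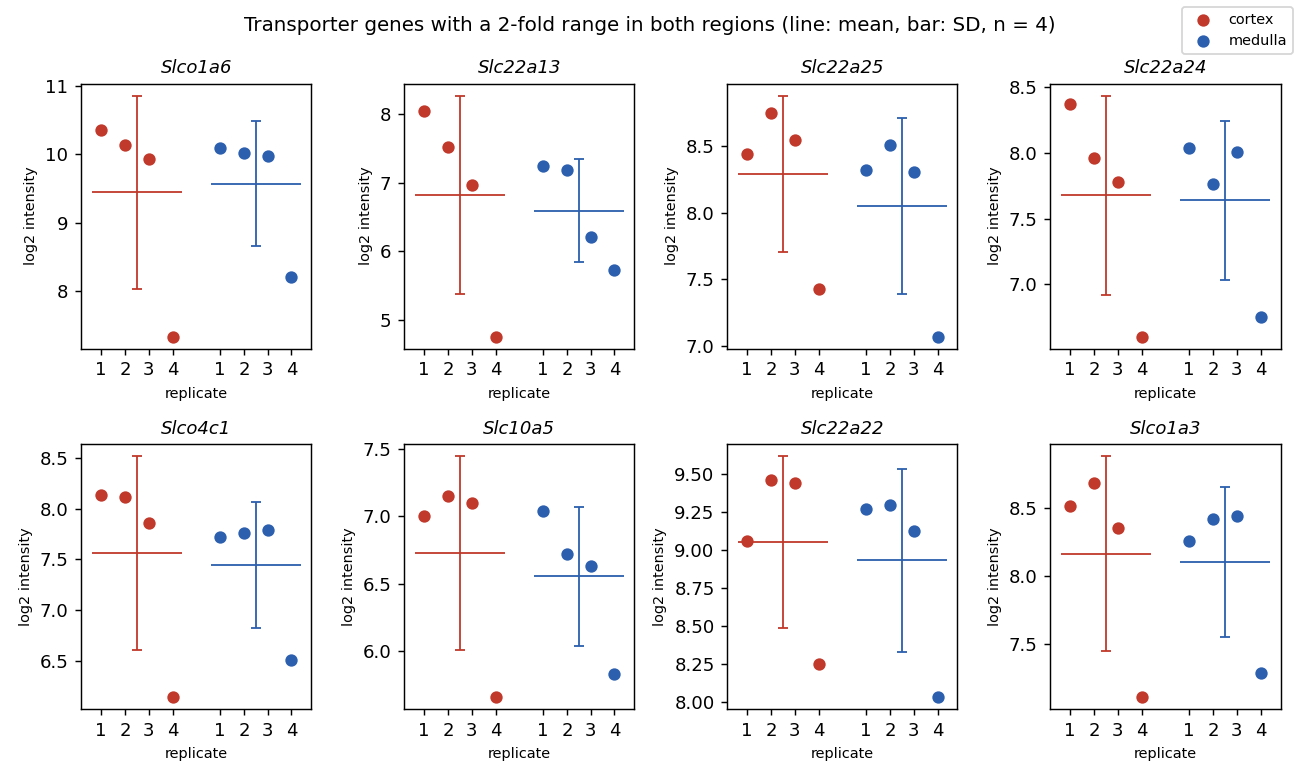
Log2 intensity on each array of the 8 transporter genes that ranged over at least 2-fold in both regions. Points are arrays by replicate (red cortex, blue medulla), lines the mean of 4 arrays and bars the SD, and each gene has its own vertical scale. Replicate 4 is the lowest point of both regions in every panel, and only Slc22a13 also spreads over more than 1 log2 unit between the other arrays.

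Slc22a13 encodes OAT10, an apical exchanger of urate and nicotinate. It measured 8.05, 7.52, 6.96 and 4.75 across cortex and 7.25, 7.19, 6.20 and 5.73 across medulla. The cortex range of 3.30 was the widest of the 47 genes, and it may be understated because 4.75 lies under 4.83, the 30th percentile of the mean signal over all genes. The other arrays differed too, with ranges of 1.10 in cortex and 1.05 in medulla without replicate 4. Its neighbour Slc22a14 measured 4.63 to 4.75 on all arrays.

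Slc22a24 and Slc22a25 encode further renal organic anion carriers, and the first is known for exchange of steroid sulfates and dicarboxylates at the brush border. Slc22a24 measured 8.37, 7.96, 7.78 and 6.60 across cortex and 8.04, 7.76, 8.01 and 6.75 across medulla. Slc22a25 measured 8.44, 8.75, 8.55 and 7.43 across cortex and 8.32, 8.51, 8.31 and 7.07 across medulla. For both genes replicate 4 was more than 2-fold below every other array of its region. Without it, Slc22a24 ranged over 0.58 in cortex and 0.28 in medulla, and Slc22a25 over 0.30 and 0.20.

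Slc22a25, Slc22a8 and Slc22a6 follow each other on chromosome 1 with no other protein-coding gene starting between them, and 3 genes lie between Slc22a24 and Slc22a25. Slc22a8 and Slc22a6 differed from the first pair in their low arrays. Slc22a6 encodes OAT1, the basolateral exchanger that takes up para-aminohippurate, and measured 9.67, 10.20, 10.26 and 9.78 across cortex and 9.79, 10.04, 9.14 and 8.98 across medulla. Slc22a8 encodes OAT3, its partner for bulkier anions, and measured 9.04, 9.70, 9.99 and 9.68 across cortex and 9.02, 9.39, 8.96 and 8.67 across medulla. In cortex the lowest array of both was replicate 1, and in medulla it was replicate 4. Their cortex ranges were 0.59 and 0.95, and their medulla ranges were 1.05 and 0.73. For Slc22a8 the cortex range was 0.30 without cortex replicate 1, and the medulla range was 0.35 without medulla replicate 2.

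Slc22a7, which encodes OAT2, measured 5.79, 5.58, 5.67 and 5.11 across cortex and 5.63, 5.56, 5.38 and 5.28 across medulla. Replicate 4 was its lowest array in both regions, with a range of 0.68 in cortex and 0.36 in medulla, both under 2-fold, and of 0.21 and 0.25 without that array.

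Slc22a22 encodes OAT-PG, a prostaglandin uptake carrier of the proximal tubule. It measured 9.06, 9.46, 9.44 and 8.25 across cortex and 9.27, 9.30, 9.13 and 8.03 across medulla, with replicate 4 lowest by 1.76-fold and 2.15-fold. Its range was 1.21 in cortex and 1.28 in medulla, and 0.40 and 0.17 without replicate 4. Slco2a1 encodes the prostaglandin transporter PGT. It measured 8.19, 7.94, 7.65 and 7.67 across cortex and 8.39, 8.00, 7.85 and 8.00 across medulla. Its range was 0.54 in both regions, and replicate 1 was the highest and replicate 3 the lowest array of each, so its low arrays were not those of Slc22a22.

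Among organic cation carriers, Slc22a2 encodes OCT2, the basolateral uptake route of metformin and creatinine. It measured 10.72, 10.88, 10.75 and 9.85 across cortex and 10.79, 10.69, 10.23 and 9.93 across medulla. Cortex replicate 4 lay 1.82-fold below the lowest of the others, the cortex range was 1.03, or 0.17 without that array, and the medulla range of 0.85 stayed under 2-fold. Slc22a3, next to Slc22a2 on the chromosome and encoding OCT3, measured 4.24 to 4.29 throughout.

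Slc47a1 encodes MATE1, the brush border proton exchanger that passes organic cations into urine. It measured 8.44, 8.82, 9.00 and 8.55 across cortex and 8.58, 8.71, 8.28 and 7.82 across medulla. Its cortex range of 0.56 had replicate 1 as the lowest array, and its medulla range of 0.89 had replicate 4. The related Slc47a2 measured 5.13, 5.16, 5.27 and 5.12 across cortex and 4.97, 5.15, 5.07 and 5.04 across medulla, so neither MATE gene reached a 2-fold range.

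The carriers of urate differed in their arrays. Slc22a12 encodes URAT1, the apical urate exchanger, and measured 9.02, 9.36, 9.18 and 8.98 across cortex and 9.13, 9.40, 8.48 and 8.65 across medulla. Slc17a3 encodes the apical exit route NPT4, and measured 8.87, 8.99, 9.40 and 9.60 across cortex and 8.74, 9.03, 8.87 and 9.31 across medulla. Slc22a13, described above, was lowest on the replicate 4 arrays, whereas Slc17a3 was highest on them, by 0.20 in cortex and 0.28 in medulla. The range of Slc17a3 was 0.73 in cortex and 0.57 in medulla, and that of Slc22a12 was 0.38 and 0.93, all under 2-fold.

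Slc22a5 encodes OCTN2, which recovers carnitine from the filtrate. It measured 8.44, 9.15, 9.13 and 8.91 across cortex and 8.69, 8.99, 8.20 and 8.36 across medulla, with replicate 1 lowest in cortex and replicate 3 lowest in medulla. Its ranges were 0.71 and 0.79.

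**Figure D2:**
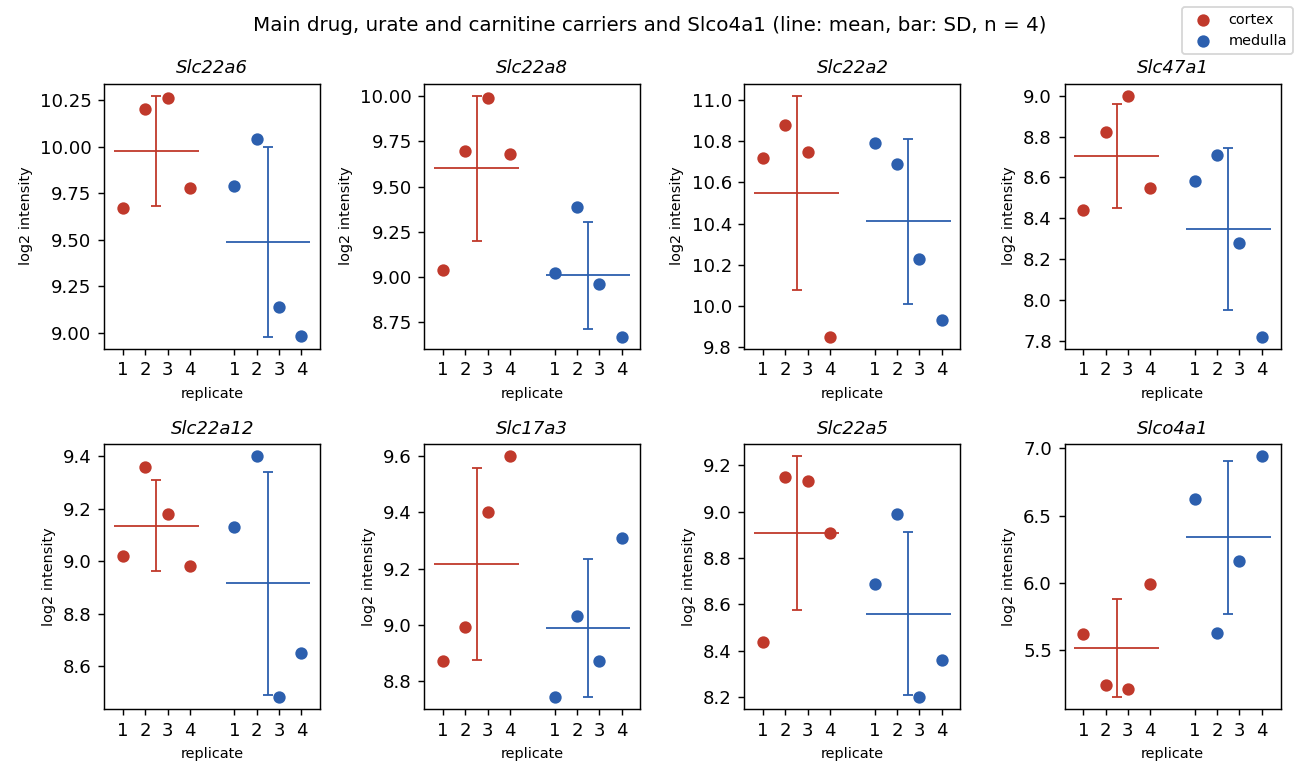
Log2 intensity on each array of 8 transporter genes with known substrates. Points are arrays by replicate (red cortex, blue medulla), lines the mean of 4 arrays, bars the SD, and vertical scales differ between genes. Cortex replicate 4 is the lowest cortex array for Slc22a2 and Slc22a12 and the highest for Slc17a3 and Slco4a1, and the regions overlap in every panel.

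Slco4a1 encodes a thyroid hormone carrier. It measured 5.62, 5.24, 5.21 and 5.99 across cortex and 6.62, 5.63, 6.16 and 6.94 across medulla. Replicate 4 was the highest array of each region, by 0.37 in cortex and 0.32 in medulla, and the cortex range was 0.78, under 2-fold. The medulla range of 1.30 was 0.98 without replicate 4 and 0.77 without replicate 2. In all, 7 of the 47 genes (14.9%) were highest on replicate 4 in both regions, against 17% of all genes. On the same arrays 16 of the 47 (34%) were lowest in both, against 16% of all genes. In single regions 25 (53.2%) were lowest on replicate 4 in cortex, against 31.6% of all genes, and 22 (46.8%) in medulla, against 28.1%. Among brighter members, above the 30th percentile, 7 of 35 (20%) were highest in both, against 21.5% of such genes. Of these 35 members 13 (37.1%) were lowest in both, against 19.1%. The 7 were Slco4a1, Slc17a3, Slc17a4, Slc22a15, Slc10a2, Slc10a3 and Slc10a7.

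The Slc10a family holds the bile acid carriers. Slc10a5, an orphan member, measured 7.00, 7.15, 7.10 and 5.66 across cortex and 7.04, 6.72, 6.63 and 5.83 across medulla, and was low on replicate 4 in both regions. Its ranges of 1.49 in cortex and 1.21 in medulla were 0.15 and 0.41 without replicate 4. Slc10a2, the apical bile acid carrier ASBT, measured 4.56, 4.72, 5.02 and 5.63 across cortex and 4.80, 4.91, 4.95 and 5.00 across medulla. Its cortex range of 1.08 was 0.47 without replicate 4, and its medulla range was 0.20. Slc10a1, the liver bile acid carrier NTCP, measured 4.44, 4.67, 5.47 and 4.83 across cortex and 4.58, 4.70, 5.45 and 4.73 across medulla, so that replicate 3 was its highest array in each region. Several values of both genes lay under 4.83, the 30th percentile of mean signal, so their folds may be understated. The other members, Slc10a3, Slc10a4, Slc10a6 and Slc10a7, had ranges of 0.15 to 0.58.

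The Slc17a family of 8 genes had no member with a 2-fold range, against 3.6% of all genes in cortex and 3.8% in medulla, and so few genes could show no departure from these shares. The cortex ranges were 0.06 to 0.73 and the medulla ranges 0.08 to 0.83. Slc17a5 encodes sialin, which exports sialic acid from lysosomes. It measured 8.51, 8.40, 8.61 and 7.91 across cortex and 8.11, 8.02, 8.24 and 7.85 across medulla, lowest on replicate 4 in both regions. The vesicular glutamate carrier genes Slc17a6, Slc17a7 and Slc17a8, known from neurons, lay between 4.32 and 5.07, and the vesicular nucleotide carrier gene Slc17a9 between 4.94 and 5.31. Slc17a6 measured 4.42, 4.45, 4.44 and 4.48 across cortex and 4.43, 4.39, 4.38 and 4.32 across medulla. In all, 12 of the 47 genes had a mean at or under the 30th percentile of all genes, 7 of them Slco genes, and none of these 12 ranged over more than 0.27.

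Averaged over the 47 genes, the deviation from the region mean was -0.23 on cortex replicate 4 against 0.03, 0.10 and 0.11 on replicates 1 to 3. It was -0.20 on medulla replicate 4 against 0.10, 0.10 and 0.00 on replicates 1 to 3. Over all genes it lay between -0.01 and 0.01 on every array, which normalization between arrays largely fixes. The median deviation of the 47 was smaller, at -0.05 and -0.06 on the replicate 4 arrays. By family the mean on cortex replicate 4 was -0.36 for Slco, -0.32 for Slc22a, -0.10 for Slc47a, -0.04 for Slc17a and -0.04 for Slc10a. On medulla replicate 4 it was -0.22, -0.34, -0.27, -0.01 and -0.04 for the same families.

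**Figure D3:**
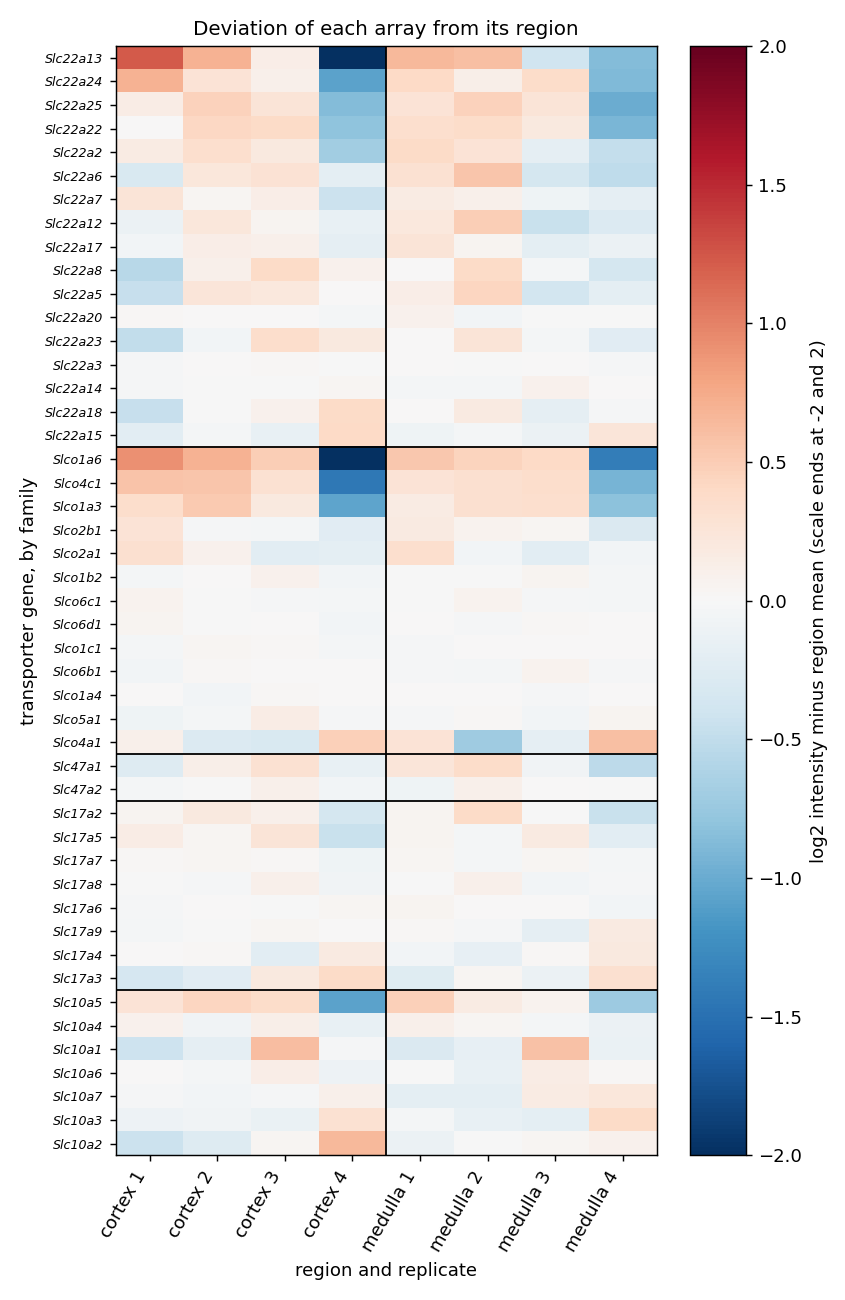
Deviation of each array from the mean of its region, in log2 units, for the 47 transporter genes. Rows are genes grouped by family (Slc22a, Slco, Slc47a, Slc17a and Slc10a from the top, lines between), columns are arrays, blue is below and red above the region mean, and the colour scale ends at -2 and 2. The darkest blue cells are on the replicate 4 columns, for Slc22a13 and Slco1a6, and several rows of Slc22a and Slco genes are pale on all 8 arrays.

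Markers of several nephron segments differed on the same arrays, but not every list stood apart in cortex. Proximal straight tubule markers (6 of 6 measured) had a summed intensity of 2499 on cortex replicate 4, where the remaining cortex arrays had 4962 to 5347, and of 2596 on medulla replicate 4, where the remaining medulla arrays had 4776 to 4905. Of these 6 genes 3 were lowest on replicate 4 in both regions (Slc5a1, Slc7a13 and Acy3) and 1 was highest, Agps at 7.05 and 7.25. Slc5a8 was highest on replicate 4 in cortex, at 8.35. Slc7a13, an amino acid transporter of the last proximal segment, measured 11.69, 11.60, 11.37 and 9.65 across cortex and 11.46, 11.40, 11.52 and 10.23 across medulla. For the wider proximal tubule list (11 of 12 measured) the summed intensity was 10590 on cortex replicate 4, within the 9319 to 11634 of the other cortex arrays, and 7376 on medulla replicate 4 against 8278 to 10951. Such sums are set mostly by the brightest genes. With each gene counted alike, the mean deviation was 0.37 on cortex replicate 4 against -0.44, 0.01 and 0.05 on replicates 1 to 3. On medulla replicate 4 it was -0.01 against -0.12, 0.17 and -0.04. Of these 11 genes 5 were highest on replicate 4 in both regions (Cubn, Slc5a2, Slc5a12, Slc4a4 and Slc7a7) and 4 were lowest (Slc34a1, Aqp1, Fbp1 and Miox). Slc5a2, the glucose carrier of the first segment, stood on replicate 4 at 8.06 against 5.62 to 6.47 in cortex and 6.85 against 5.52 to 6.16 in medulla. The thick ascending limb list (4 of 4 measured) summed to 2747 on replicate 4 against 5124 to 6918 in cortex and 3645 against 5675 to 6382 in medulla. Umod and Slc12a1 were lowest on replicate 4 in both regions, Cldn16 in cortex alone, and Ptger3 was highest in both, at 9.06 and 9.65. The collecting duct list (5 of 5 measured) summed to 601.4 on replicate 4 against 1140 to 1395 in cortex and 699.8 against 1253 to 2749 in medulla. Aqp2, Aqp3 and Avpr2 were lowest on replicate 4 in both regions, Slc14a2 in cortex alone and Scnn1g in neither. The leukocyte list (6 of 6 measured) was high, at 1927 against 1371 to 1545 in cortex and 1737 against 1385 to 1516 in medulla. The distal convoluted tubule list (4 of 4 measured) summed to 1149 on cortex replicate 4, within the 1095 to 2587 of the others. In medulla it was 636 against 942.1 to 2129. The podocyte list (3 of 4 measured) summed to 620, within 521.9 to 812.2, in cortex and to 414.9 against 468.5 to 725.6 in medulla. The endothelium list (2 of 4 measured) summed to 282.9 against 307 to 560.9 in cortex and 461 against 511.3 to 643.3 in medulla. The part of these shifts, and of the injury markers, in the transporter values was not tested.

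**Figure D4:**
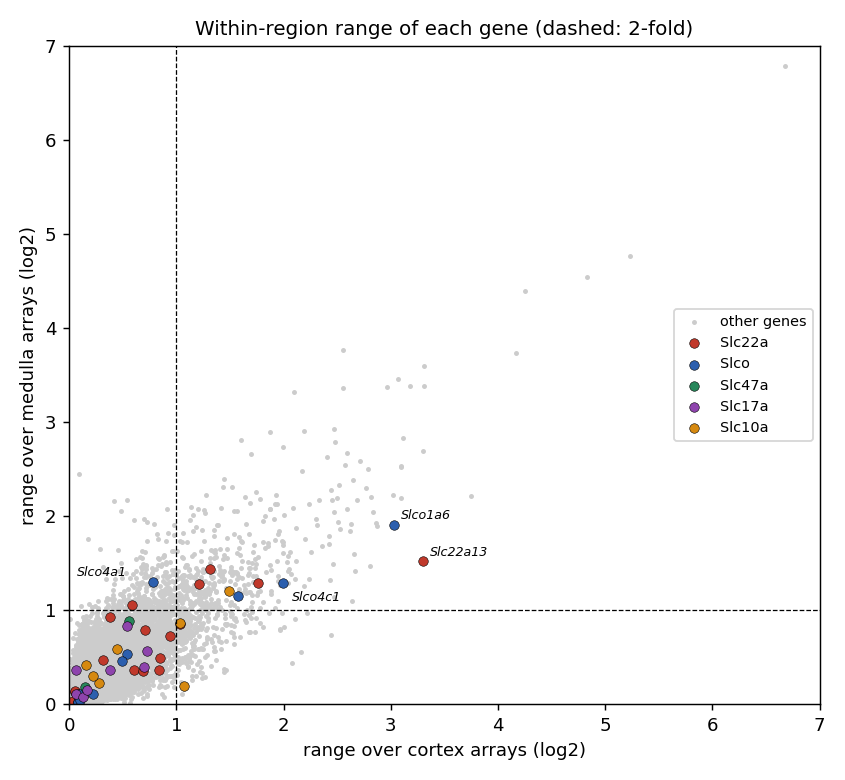
Range of each gene over the 4 cortex arrays (horizontal) and the 4 medulla arrays (vertical), in log2 units, with the 47 transporter genes coloured by family and all other genes grey. Dashed lines mark 2-fold. In the upper right field lie 8 transporter genes, with Slco1a6 at 3.03 and 1.91 and Slc22a13 at 3.30 and 1.52 farthest from the others.

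Genes that work with these carriers were taken from a list of efflux pumps, dicarboxylate carriers, related carriers, scaffolds, transcription factors and sodium pump subunits. Of 32 measured, 5 had a 2-fold range in cortex, against 3.6% of all genes, 2 in medulla, against 3.8%, and 2 in both, against 2.21%. On replicate 4 in both regions 12 of the 32 were lowest, against 16% of all genes, and 4 of the 32 highest, against 17%. The pair with wide ranges in both regions were transcription factor genes. Esr1, the estrogen receptor alpha gene, measured 7.52, 7.76, 7.64 and 6.14 across cortex and 7.15, 7.48, 6.98 and 5.95 across medulla, with ranges of 0.24 and 0.50 without replicate 4. Bcl6, a transcriptional repressor, measured 6.04, 6.74, 5.73 and 6.67 across cortex and 7.06, 5.85, 7.10 and 6.67 across medulla, with no common low array. Hnf4a, which directs proximal tubule genes, measured 9.04, 9.29, 9.47 and 8.85 across cortex and 9.16, 9.14, 8.71 and 8.51 across medulla, lowest on replicate 4 in both regions but under 2-fold.

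Slc13a3, which supplies the dicarboxylates that OAT1 and OAT3 exchange, measured 9.38, 10.14, 10.30 and 10.48 across cortex and 9.67, 9.94, 8.99 and 9.64 across medulla. Replicate 4 was its highest array in cortex and not its lowest in medulla. The other dicarboxylate carrier gene measured, Slc13a2, was lowest on replicate 4 in both regions but under 2-fold. It stood there at 7.43 against 7.49 to 7.88 in cortex and 6.96 against 7.24 to 7.67 in medulla. The 8 measured efflux pumps had no 2-fold range, against 3.6% of all genes in cortex and 3.8% in medulla. So few genes could show no departure from these shares. The pump gene Abcg2, which exports urate, ranged over 0.34 in cortex and 0.64 in medulla. Pdzk1, the scaffold of brush border carriers, ranged over 0.59 and 0.77.

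The region labels allow a test of medulla against cortex. Of the 47 genes 34 had a lower mean in medulla, 72.3% of them against 54.2% of all genes (26 of 35 above the 30th percentile, against 49.6%), and none of the 47 had regions that did not overlap, against 2.83% of all genes. The differences ran from -0.59 to 0.82, with a median of -0.06 beside -0.01 over all genes. By limma with Benjamini-Hochberg adjustment over all 18166 genes 0 of the 47 were called, against 0% of all genes, and the adjusted p lay between 0.875 and 0.997. An unadjusted p under 0.05 was reached by 2 members, against 5.35% of all genes, with 1 higher in medulla, against 2.77%, and 1 lower, against 2.58%. That count was 6 without medulla replicate 2, 5 without cortex replicate 1, 1 without medulla replicate 3 or 4, and 0 without cortex replicate 2, cortex replicate 3 or medulla replicate 1. The share of all genes without these arrays was not computed, so these counts cannot be set against it. limma with a trended robust prior, with array weights and as treat also called 0.

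The 2 members were Slco4a1 and Slc22a8. Slco4a1 was 6.34 ± 0.57 (SD, n = 4) in medulla and 5.52 ± 0.37 (SD, n = 4) in cortex, with medulla higher by 0.82 (standard error 0.30), and limma's adjusted p was 0.875. The medulla value of 5.63 on replicate 2 lay below cortex replicate 4, at 5.99, so the regions overlapped. For Slc22a8 medulla minus cortex was -0.59 (standard error 0.22), with an adjusted p of 0.875 by limma, and cortex replicate 1 at 9.04 lay below medulla replicate 2 at 9.39. Both signs held with any 1 array left out, between 0.62 and 1.06 for Slco4a1 and between -0.78 and -0.46 for Slc22a8.

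The uptake and efflux carriers Slc22a6, Slc47a1 and Slc22a5 also had lower means in medulla, by differences of -0.49 ± 0.26 (SE), -0.36 ± 0.21 and -0.35 ± 0.22, none of them called by limma. Without medulla replicate 4 they were -0.32 for Slc22a6 and -0.18 for Slc47a1, and without medulla replicate 3 the value was -0.23 for Slc22a5. Slc17a5 differed by -0.30 ± 0.16 (SE), Slc47a2 by -0.11 ± 0.05 and Slc17a6 by -0.07 ± 0.03, the last at a level where signal and background cannot be separated here. For Slc22a12 the difference was -0.22 ± 0.21 (SE), for Slc17a3 -0.23 ± 0.19 and for Slco2a1 0.20 ± 0.16. These moved to -0.07 for Slc22a12 without medulla replicate 3, to -0.10 for Slc17a3 without cortex replicate 4 and to 0.09 for Slco2a1 without medulla replicate 1. In the 8 genes with wide ranges in both regions the differences lay between -0.24 and 0.13, each smaller than its standard error, and each changed sign under some alternative. The collecting duct urea transporter Slc14a2, a marker of the medulla, differed by 1.53 ± 0.32 (SE), with an adjusted p of 0.875 by limma. It had the largest difference of the 5 collecting duct markers. Aqp3, Aqp2 and Avpr2 differed by 0.72, 0.41 and 0.16, and Scnn1g had a lower mean in medulla, at -0.20. Proximal tubule markers had a lower mean in medulla in 10 of 11. The part of these markers in the transporter differences was not tested.

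**Figure D5:**
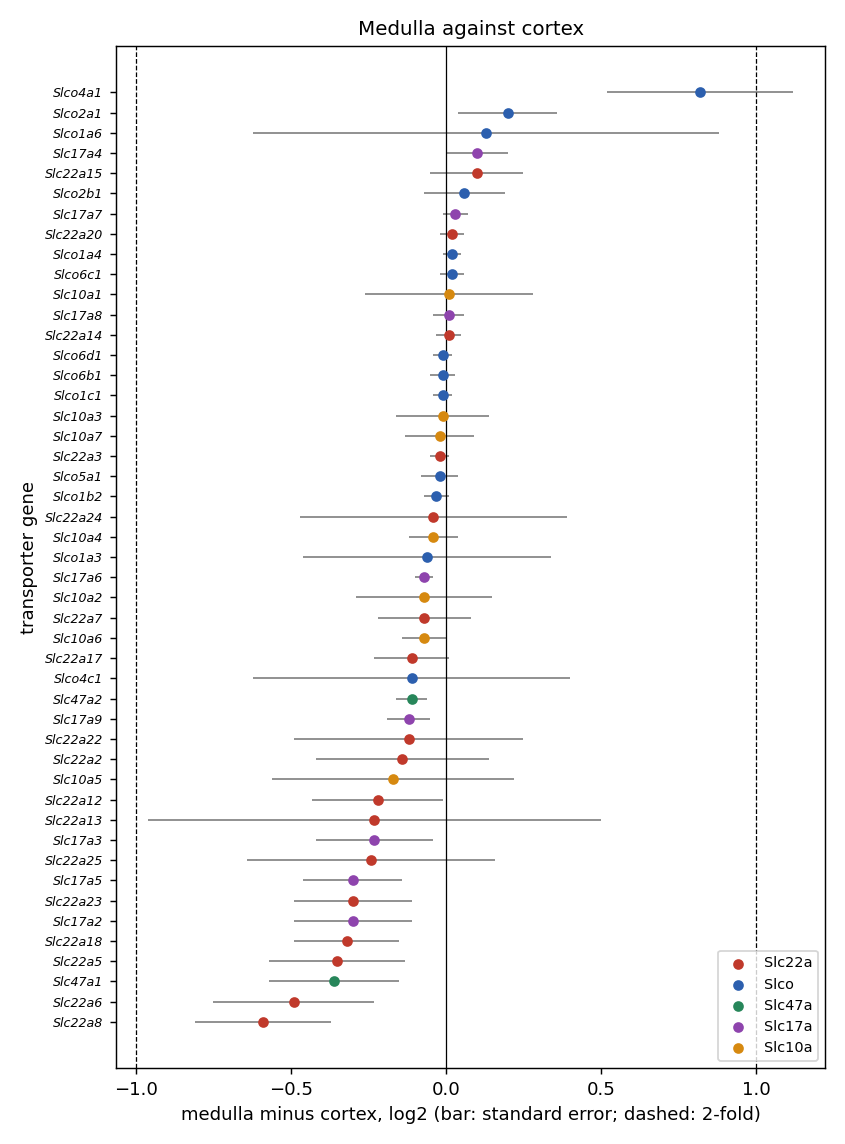
Medulla minus cortex difference of each of the 47 transporter genes in log2 units, from limma over 4 arrays per region. Points are coloured by family, bars are standard errors, and dashed lines mark 2-fold. Slc22a8 is lowest at -0.59, Slco4a1 highest at 0.82, and no point reaches a dashed line.

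Of the 17 Slc22a genes 5 had a 2-fold range in cortex, against 3.6% of all genes, and 5 in medulla, against 3.8%. All of these are described above, so the remaining Slc22a genes have no such range by selection. Slc22a18 measured 7.15, 7.62, 7.70 and 8.00 across cortex and 7.31, 7.49, 7.13 and 7.28 across medulla. Slc22a23 measured 6.54, 6.98, 7.40 and 7.23 across cortex and 6.75, 7.00, 6.70 and 6.51 across medulla. Both had replicate 1 as the lowest cortex array. Slc22a17, which encodes a receptor for lipocalin 2, lay between 5.94 and 6.41, Slc22a15 between 6.26 and 6.87 and Slc22a20 between 4.96 and 5.11. Of the other Slco genes, Slco2b1, a broad carrier of steroid sulfates, measured 6.02, 5.72, 5.71 and 5.52 across cortex and 5.98, 5.88, 5.84 and 5.52 across medulla, lowest on replicate 4 in both regions.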

How the data were processed

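Per the submitters' processing notes, Expression Console with RMA produced the intensities that the authors deposited for 29870 probe sets on 8 arrays. The version of each was not given in the sources used here. Deposited intensities ran from 17.3 to 6229 with array medians of 34.1 to 34.7, so they were read as linear and already normalized between arrays, and log2 was taken with no pseudocount. The number of arrays limits the precision. Of the probe sets, 18511 carried a single symbol, 575 several and 10784 none. For each of 18166 genes the probe set with the highest mean was kept, with no filter on dim genes. Any pair of arrays had at most 1 value in common.

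Medulla was set against cortex by limma 3.58.1 under R 4.3.3 (moderated linear model, Benjamini-Hochberg over all genes, called at an adjusted p under 0.05 and 2-fold). The code was tested on simulated data. A range is the highest minus the lowest log2 value of a region, and deviations are from the region mean. Replicate numbers follow label order, and the labels do not say whether arrays with the same number came from the same animal. The limma fit treated all arrays as independent, so any such pairing was not modelled.

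Values on all arrays are given for the 10 members with the highest mean, the 12 with the largest smaller range, the 6 with the smallest unadjusted p and 11 chosen by role, 23 in all. Values of other members were chosen after they were seen. Members and lists were chosen with earlier results of these data known. Windows of sequence come from RefSeq, build GRCr8. Figures were drawn with matplotlib 3.10.9.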

Additional observations from a re-analysis of the deposited data

Results flagged for a closer look

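Among 94 groups of 4 arrays (47 genes in 2 regions), 13 held an array far from the other 3, with a gap to its nearest neighbour above Dixon's critical value. That is 13.8% of them, beside 7.16% of the 36332 groups over all genes, while chance alone flags about 1 in 20. On cortex replicate 4 these were Slco1a6 at 7.33, Slco4c1 at 6.14, Slc10a5 at 5.66, Slc22a2 at 9.85 and Slc17a7 at 4.61, all low, and Slc10a3 at 6.22, high. On medulla replicate 4 they were Slco1a6 at 8.20, Slco4c1 at 6.51, Slc22a22 at 8.03, Slc22a25 at 7.07 and Slco1a3 at 7.29, all low. On medulla replicate 3, Slc10a1 stood high at 5.45 and Slco6b1 at 4.37. Slc17a7 and Slco6b1 ranged over 0.13 and 0.11 near the lowest signals of the array, where such gaps are small in absolute size.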

How the results depend on the processing

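No member was called by limma under any alternative run. Those at an unadjusted p under 0.05 were 2, 4 with array weights, 0 with treat against a 1.5-fold change and 0 to 6 with an array left out, 6 without medulla replicate 2. The share of all genes at that p was not computed for these alternatives. The count with a 2-fold range was 11 in cortex, 10 in medulla and 8 in both regions. With a 1.5-fold range it was 21, 17 and 14, with a 3-fold range 4, 1 and 1, and with both replicate 4 arrays left out 2, 1 and 1. With single arrays left out it was 2 to 11 in cortex, 1 to 10 in medulla and 1 to 8 in both, the low ends without the replicate 4 arrays. The share of all genes was not computed at 1.5-fold and 3-fold, so those counts cannot be set against it. Quantile normalization and median centring gave the same counts, and the mean of probe sets could not change them, since each member has 1. The mean deviation on the replicate 4 arrays, -0.23 and -0.20, was -0.05 and -0.06 as a median. Members lowest on replicate 4 in both regions numbered 16, and 16 to 20 with single arrays left out. Of 23 differences given to test, 12 changed sign. With an array left out they ran from -0.18 to 0.22 for Slc10a1, -0.21 to 0.15 for Slc10a2, -0.53 to 0.07 for Slc10a5, -0.92 to 0.18 for Slc22a13, -0.38 to 0.02 for Slc22a2 and -0.39 to 0.18 for Slc22a22. They ran from -0.39 to 0.26 for Slc22a24, -0.53 to 0.08 for Slc22a25, -0.22 to 0.01 for Slc22a7, -0.42 to 0.21 for Slco1a3, -0.57 to 0.59 for Slco1a6 and -0.59 to 0.20 for Slco4c1. With array weights Slc10a1 stood at -0.11, Slc10a2 at 0.01 and Slco1a6 at -0.04. The cause was not tested. No paired analysis was possible because the labels give no replicate numbers that the regions share. Signals near the lower quartile, 4.44 to 4.48, limit the folds that start or end there.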

Other observations

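Among carriers outside these families, Slc51b, a subunit of the basolateral bile acid exporter, measured 6.85, 7.71, 8.11 and 7.68 across cortex and 7.18, 7.47, 7.30 and 7.39 across medulla, with replicate 1 lowest in both regions. Its cortex range of 1.26 was 0.43 without replicate 1. Pdzk1ip1, a small membrane partner of the scaffold Pdzk1, was highest on the replicate 4 arrays, at 9.33 in cortex and 8.76 in medulla, against 8.08 to 8.45 and 7.89 to 8.55 on the other arrays. Ppara, the fatty acid receptor gene, was lowest there, at 6.24 and 5.98.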
